A study of Mus musculus with 12 samples.

Results

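The genes described here are 10 regulators of the integrated stress response: the transcription factors Atf4, Atf5, Ddit3, Atf3 and Cebpb, and Trib3, Nupr1, Chac1, Sesn2 and Ddit4, which act with or after them. They were taken as every probe set annotated with exactly one of these gene symbols, which gave 17 of 45037 probe sets for 10 of 18193 genes. All 10 genes passed the filter on dim signals, and each of them would also have passed on the WT arrays alone, while 1 dim probe set of Atf4 did not pass. The members and the lists set beside them were chosen with earlier results of these data known.

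Whole hearts of CD1 mice were profiled as bulk tissue on Affymetrix 3′ arrays. One set of mice carried a construct for dominant-negative MCU (DN-MCU), MCU being the pore subunit of the mitochondrial calcium uniporter, and the other was their wild-type (WT) littermates. The groups were DN-MCU adults and WT adults, all male and 42 days old, and DN-MCU neonates and WT neonates, 1 day old and with no sex given, with 3 arrays in each group. The study's title places the inhibition in the myocardium; the labels used here name neither the promoter of the construct nor the number of founder lines. In whole hearts, fewer cells of a type and less RNA per cell cannot be told apart.

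The integrated stress response is the pathway by which a cell slows general translation and starts a rescue programme. Kinases that sense amino acid shortage, misfolded protein, viral RNA or haem shortage and mitochondrial stress phosphorylate the initiation factor eIF2alpha, and translation of the Atf4 and Atf5 mRNAs then rises while that of most others falls. ATF4 protein enters the nucleus, pairs with C/EBP family factors and switches on genes of amino acid supply along with Ddit3, Atf3, Trib3, Chac1 and Sesn2; in muscle and heart the same programme is known from mitochondrial disease. Because ATF4 is controlled at translation, its mRNA level is an incomplete reading of its activity.

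The DNA element that ATF4 and C/EBP factors bind together is the C/EBP-ATF response element. Its core, TGATGNAA, was looked for on both strands of the promoters in the RefSeq table for build GRCm38.p6, each 250 bases before and 50 after a gene's start, and all 10 genes matched the table with 11 promoters. It was present for 4 of the 10 genes, Atf3, Chac1, Nupr1 and Trib3, against 3.97% of all 32851 promoters. The cAMP response element TGACGTCA, in 1.79% of all promoters, and the endoplasmic reticulum stress element (CCAAT and CCACG with 9 bases of any kind between them), in 0.119%, were found in none of the 11. These windows are short, and a missing match says only that the letters are not in them. The promoters with a match are shown because their genes span the range of responses described below, from the top of the order of differences to its lower part. They are printed 5′ to 3′ on the strand of the gene, up to the base before its start, with the match to the core in capitals. The bases lie at chr1:191183334-191183583 on the minus strand for Atf3, chr2:119350992-119351241 on the plus strand for Chac1 and chr7:126625471-126625720 on the minus strand for Nupr1. In Trib3 the match began 14 bases after the start, and only the 30 bases around it are shown, at chr2:152344028-152344057 on the minus strand.
Atf3: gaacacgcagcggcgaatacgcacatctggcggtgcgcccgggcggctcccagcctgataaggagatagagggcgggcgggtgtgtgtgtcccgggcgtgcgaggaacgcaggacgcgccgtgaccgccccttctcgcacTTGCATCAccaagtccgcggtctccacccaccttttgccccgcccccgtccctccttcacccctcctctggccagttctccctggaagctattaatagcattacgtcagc
Chac1: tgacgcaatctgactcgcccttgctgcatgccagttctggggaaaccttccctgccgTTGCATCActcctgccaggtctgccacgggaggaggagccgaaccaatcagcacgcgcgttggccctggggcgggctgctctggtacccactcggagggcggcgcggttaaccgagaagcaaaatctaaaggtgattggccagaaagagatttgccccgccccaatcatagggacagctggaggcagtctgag
Nupr1: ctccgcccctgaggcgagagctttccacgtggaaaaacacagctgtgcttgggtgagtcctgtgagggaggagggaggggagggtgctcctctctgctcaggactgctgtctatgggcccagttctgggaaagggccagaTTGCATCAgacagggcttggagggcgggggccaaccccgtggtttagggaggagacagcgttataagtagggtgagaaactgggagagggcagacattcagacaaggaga
Trib3: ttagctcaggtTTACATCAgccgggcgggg
Atf3, Chac1 and Nupr1 carried the same 8 bases, TTGCATCA, which are the core read on the opposite strand, and Trib3 carried TTACATCA. The match began 110 bases before the start in both Atf3 and Nupr1 and 193 bases before it in Chac1.

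The adult arrays scattered more than the neonatal ones: the median SD of a probe set was 0.40 in DN-MCU adults and 0.23 in WT adults, against 0.14 in DN-MCU neonates and 0.13 in WT neonates. DN-MCU adult 3 stood apart on the second principal component, at 121.4 where the other 11 arrays lay between -50.89 and 24.42, which is where WT adult 1 lay. For each marker set the linear signals were added and the log2 of that sum is given, so the brightest markers weigh most. For the cardiomyocyte markers, all 10 of 10 measured, it was 18.25 to 18.35 in DN-MCU adults and 18.32 to 18.46 in WT adults. It was 17.98 to 18.10 in DN-MCU neonates and 18.04 to 18.07 in WT neonates. Of 8 adipocyte markers 4 were measured, and their sum was 12.27 in DN-MCU adult 3, against 14.43 and 14.87 in the other DN-MCU adults and 14.11 to 14.83 in WT adults. In neonates it was 14.66 to 14.71 in DN-MCU and 14.52 to 14.63 in WT hearts, with 3 of the 4 markers below the filter level at that age. All 8 epicardial markers were measured, with a sum of 9.39 to 9.70 in DN-MCU adults and 9.60 to 11.34 in WT adults (11.34 in WT adult 1), and of 10.46 to 11.01 in DN-MCU neonates and 11.37 to 12.06 in WT neonates. Of 10 erythroid markers 2 were measured, with a sum of 8.68 to 9.35 in DN-MCU neonates and 9.47 to 10.64 in WT neonates. The part of these differences in the results below was not tested. Of the 2 probe sets of Mcu, the one that is dim in WT hearts was at 8.85, 9.64 and 10.41 in DN-MCU adults, 4.55, 2.45 and 3.06 in WT adults, 8.73, 8.44 and 9.28 in DN-MCU neonates and 2.90, 3.31 and 3.24 in WT neonates, high on every array labelled DN-MCU and on none labelled WT. The other, brighter over the 12 arrays, averaged 7.69 in DN-MCU adults, 7.66 in WT adults, 7.98 in DN-MCU neonates and 7.95 in WT neonates.

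In adult hearts every one of the 10 regulators had a higher mean log2 signal with DN-MCU than in WT, by 0.28 to 6.06 on the log2 scale. Of all genes tested 50.3% had a higher mean with DN-MCU. A gene passed at a Benjamini-Hochberg adjusted p under 0.05 over all 24176 probe sets, in a limma fit of the 6 adult arrays. Trib3, Chac1, Atf5, Ddit3 and Atf4 passed and rose, none fell, and Nupr1, Atf3, Sesn2, Cebpb and Ddit4 did not pass. These 5 of 10 stand against 0.389% of all probe sets that passed as higher and 0.0745% that passed as lower. The median difference of the 10 genes was 1.92, against 0.002 over the 11807 genes tested. For 9 of the 10 every DN-MCU adult array lay above every WT adult array, as was the case for 8.7% of all probe sets. The log2 signals of all 10 genes on each array are plotted below by group.

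**Figure D1:**
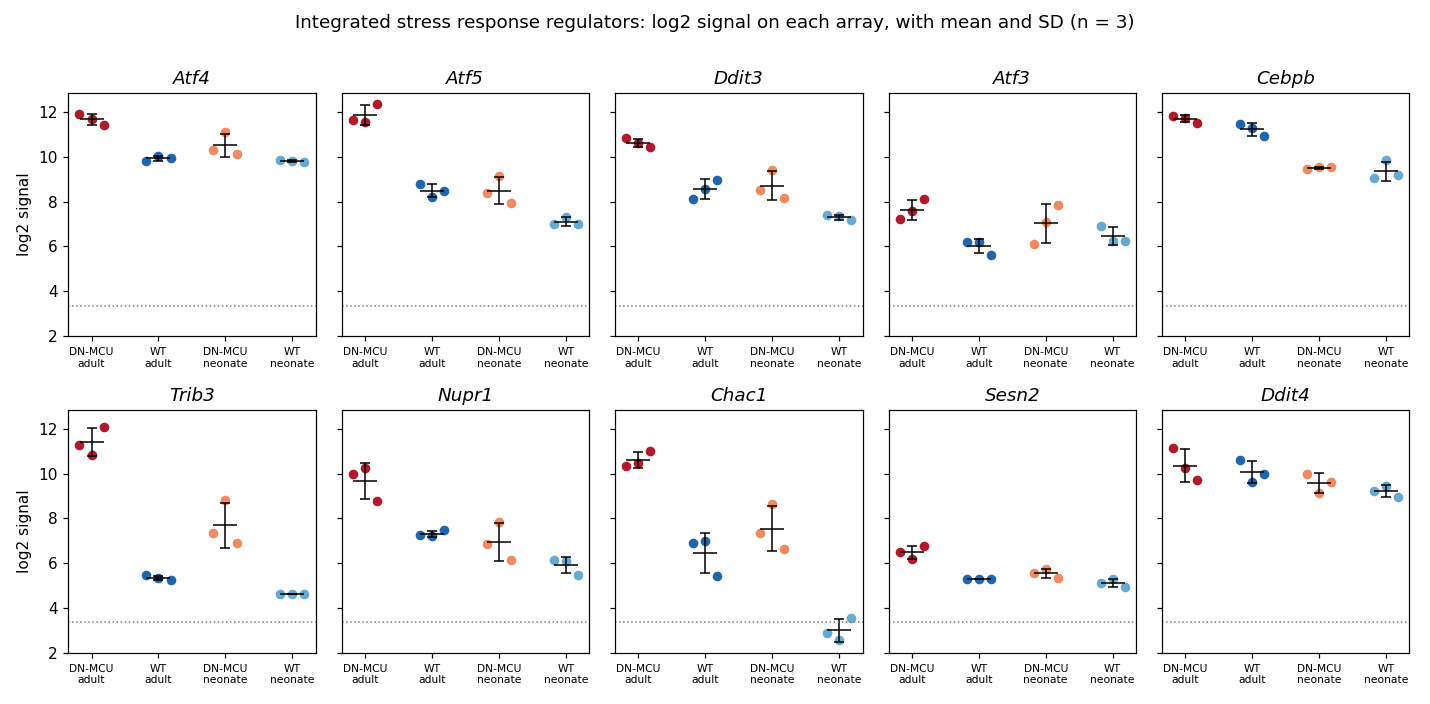
Log2 signal (vertical axis) of the 10 regulators on each array, 1 panel per gene and 1 point per array, for DN-MCU adults, WT adults, DN-MCU neonates and WT neonates, replicates 1 to 3 from left to right within a group. Black bars give the mean and SD (n = 3) and the dotted line the filter level of 3.35; Trib3 and Chac1 show the widest gaps between DN-MCU and WT, and WT neonates lie near the dotted line for Chac1 alone.

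Among the transcription factors, Atf5, a bZIP factor of the same family as ATF4 that is linked to the mitochondrial unfolded protein response, rose the most. Its log2 signal was 11.65, 11.55 and 12.36 in DN-MCU adults and 8.81, 8.21 and 8.47 in WT adults. The groups lay far apart, with DN-MCU adult 3 the highest array. Atf5 rose by 3.36 on the log2 scale (SE 0.29, limma adjusted p = 0.0142), which is 10.3-fold.

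Atf4, the central factor of the pathway, was at 11.91, 11.70 and 11.42 in DN-MCU adults and 9.81, 10.03 and 9.94 in WT adults. The 3 WT hearts were close together and all DN-MCU hearts were above them. Atf4 rose by 1.75 on the log2 scale (SE 0.19, limma adjusted p = 0.0305), or 3.37-fold. A second probe set of Atf4 gave 1.88 (SE 0.23, adjusted p = 0.0439), and another, at 1.91 to 2.04 on all 12 arrays and below the filter level, was not tested.

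Ddit3 encodes CHOP, a C/EBP family factor that joins ATF4 in prolonged stress. It was at 10.82, 10.61 and 10.46 in DN-MCU adults and 8.10, 8.58 and 8.97 in WT adults, a log2 difference of 2.08 (SE 0.26, limma adjusted p = 0.0466) or 4.23-fold. A dimmer probe set of the same gene did not follow it. That one was at 5.95, 4.74 and 6.01 in DN-MCU adults and 3.58, 6.18 and 5.91 in WT adults, with overlapping groups and a log2 difference of 0.34 (SE 0.76, adjusted p = 0.933). With the mean of both probe sets Ddit3 did not pass (1.21, SE 0.48, adjusted p = 0.469).

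Atf3, a stress-induced bZIP factor that can repress transcription, was at 7.23, 7.56 and 8.12 in DN-MCU adults and 6.20, 6.21 and 5.63 in WT adults. The groups did not overlap, but the log2 difference of 1.62 (SE 0.30) did not pass in limma (adjusted p = 0.108). Cebpb, the C/EBP factor that partners ATF4 on amino acid response elements, was bright and nearly level, at 11.84, 11.75 and 11.53 in DN-MCU adults and 11.49, 11.29 and 10.92 in WT adults. The lowest DN-MCU array was just above the highest WT array, and the log2 difference was 0.48 (SE 0.21, limma adjusted p = 0.519). Its second probe set gave 0.35 (SE 0.25, adjusted p = 0.73) with overlapping groups.

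Trib3, a pseudokinase that ATF4 and CHOP switch on and that in turn holds them back, had the largest rise of the 10 genes. It was at 11.30, 10.84 and 12.07 in DN-MCU adults and 5.45, 5.34 and 5.24 in WT adults. The WT hearts were close together and every DN-MCU heart was far above them. The log2 difference was 6.06 (SE 0.33, limma adjusted p = 0.00308), or 66.7-fold. A second probe set, at 9.18, 8.94 and 10.07 in DN-MCU adults and 2.23, 2.61 and 2.63 in WT adults, was below the filter level of 3.35 in every WT heart and entered the test only through the DN-MCU arrays. It gives a bound and no separate support: the DN-MCU adult mean was at least 66-fold above the filter level.

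Nupr1, a small chromatin-associated stress protein, was at 9.999, 10.24 and 8.77 in DN-MCU adults and 7.24, 7.21 and 7.47 in WT adults. DN-MCU adult 3 was well below the other DN-MCU hearts although still above every WT heart. The log2 difference was 2.37 (SE 0.40) and did not pass in limma (adjusted p = 0.0941). Without DN-MCU adult 3, the array with low adipocyte markers, it was 2.81 and passed (adjusted p = 0.0123).

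Chac1 encodes a gamma-glutamyl cyclotransferase that breaks down glutathione. Its log2 signal was 10.33, 10.49 and 11.03 in DN-MCU adults and 6.92, 7.0 and 5.44 in WT adults. WT adult 3 was lower than the other WT hearts, and all DN-MCU hearts were far above. Chac1 rose by 4.17 on the log2 scale (SE 0.47, limma adjusted p = 0.0337), or 17.9-fold.

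Sesn2 and Ddit4 both restrain the growth kinase complex mTORC1, Sesn2 as a leucine sensor and Ddit4 (REDD1) through the TSC complex. Sesn2 was at 6.49, 6.19 and 6.75 in DN-MCU adults and 5.28, 5.28 and 5.27 in WT adults. The groups were clearly apart, yet the log2 difference of 1.20 (SE 0.19) did not pass in limma (adjusted p = 0.0849). Its second probe set, at 6.99, 6.77 and 8.39 in DN-MCU adults and 4.87, 4.77 and 4.56 in WT adults, gave a larger difference of 2.65 (SE 0.44, adjusted p = 0.091). Ddit4 was the gene with the smallest difference, at 11.13, 10.23 and 9.71 in DN-MCU adults and 10.62, 9.64 and 9.97 in WT adults. These groups overlapped, and the log2 difference was 0.28 (SE 0.43, limma adjusted p = 0.895).

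Most of the adult calls did not hold when single arrays were left out, while the differences stayed positive for these 5 genes. Without any 1 of the 6 adult arrays the log2 difference lay between 5.73 and 6.34 for Trib3, 3.66 and 4.44 for Chac1, 3.10 and 3.51 for Atf5, 1.85 and 2.29 for Ddit3 and 1.64 and 1.88 for Atf4. Trib3 passed each time. It was the only one of the 10 to pass without DN-MCU adult 1 or without WT adult 1, 2 or 3, Atf5 also passed without DN-MCU adult 2, and 4 genes (Trib3, Atf5, Atf4 and Nupr1) passed without DN-MCU adult 3. Without both DN-MCU adult 3 and WT adult 1, an alternative added after the data were seen, Trib3, Atf5 and Nupr1 passed. The count over all probe sets moved too, between 17 and 175 against 112.

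In neonatal hearts the same 10 genes again all had a higher mean with DN-MCU than in WT, as did 59.0% of all genes tested. The 10 differences were 0.16 to 4.55 on the log2 scale, but none passed. Only 0.00414% of all probe sets did, which was 1 probe set, the one of Mcu that is dim in WT hearts. In limma, 6 of the 10 regulators had an unadjusted p under 0.05, against 7.27% of all probe sets. Their median difference was 0.87, against 0.03 over all genes. For 7 of the 10, each read by its brightest probe set, the groups did not overlap, as for 7.51% of all probe sets in that direction. With the replicate number as a block, 0 of the 10 and 0 of all probe sets passed.

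Chac1 stood out most at this age. It was at 7.37, 8.62 and 6.63 in DN-MCU neonates and 2.87, 2.55 and 3.56 in WT neonates. The WT signals straddle the filter level and are near background, while every DN-MCU heart was well above it. The log2 difference was 4.55 (SE 0.53, limma adjusted p = 0.265). Against the filter level in place of the WT mean, the DN-MCU mean was at least 18.2-fold higher.

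Trib3 was next, at 7.35, 8.80 and 6.90 in DN-MCU neonates and 4.61, 4.62 and 4.63 in WT neonates. WT neonates hardly differed from each other, whereas the DN-MCU neonates spread widely, with neonate 2 the highest. The log2 difference was 3.06 (SE 0.46, limma adjusted p = 0.265). When all 12 arrays were fitted with 1 spread, Chac1 passed (adjusted p = 0.04) and Trib3 did not (adjusted p = 0.0757).

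Ddit3 and Atf5 came after them. Ddit3 was at 8.52, 9.42 and 8.18 in DN-MCU neonates and 7.40, 7.35 and 7.17 in WT neonates, a log2 difference of 1.40 (SE 0.31). Atf5 was at 8.37, 9.14 and 7.94 in DN-MCU neonates and 7.01, 7.33 and 6.98 in WT neonates, a log2 difference of 1.37 (SE 0.30), and both had a limma adjusted p = 0.489. In both genes every DN-MCU heart lay above every WT heart. The dimmer Ddit3 probe set stayed between 3.05 and 3.24 on all 6 neonatal arrays.

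Nupr1, Atf4 and Sesn2 were higher in DN-MCU by smaller amounts. Nupr1 was at 6.83, 7.86 and 6.15 in DN-MCU neonates and 6.14, 6.07 and 5.48 in WT neonates, and DN-MCU neonate 3 was level with WT neonate 1. Its log2 difference was 1.05 (SE 0.44, limma adjusted p = 0.681). Atf4 was at 10.32, 11.10 and 10.12 in DN-MCU neonates and 9.84, 9.83 and 9.78 in WT neonates, a log2 difference of 0.69 (SE 0.25, adjusted p = 0.651). Sesn2 was at 5.58, 5.74 and 5.34 in DN-MCU neonates and 5.12, 5.28 and 4.93 in WT neonates, a log2 difference of 0.44 (SE 0.14, adjusted p = 0.6). For Atf4 and Sesn2, as for Nupr1, no DN-MCU heart was below a WT heart by these probe sets. By its second probe set Nupr1 was at 6.96, 7.69 and 6.26 in DN-MCU neonates and 5.93, 6.33 and 5.34 in WT neonates. There the groups overlapped (1.10, SE 0.41, limma adjusted p = 0.656).

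In Atf3, Ddit4 and Cebpb the neonatal groups overlapped. Atf3 was at 6.13, 7.10 and 7.87 in DN-MCU neonates and 6.92, 6.24 and 6.22 in WT neonates, with the lowest and the highest of the 6 arrays both DN-MCU (0.57, SE 0.45, limma adjusted p = 0.805). Fos, an immediate early factor of the same bZIP class, ran the other way at this age, at 7.77, 8.27 and 7.73 in DN-MCU neonates and 8.72, 8.70 and 9.29 in WT neonates (-0.98, SE 0.22, adjusted p = 0.489). Ddit4 was at 9.98, 9.12 and 9.64 in DN-MCU neonates and 9.21, 9.46 and 8.93 in WT neonates (0.38, SE 0.24, adjusted p = 0.769). Cebpb was at 9.47, 9.56 and 9.53 in DN-MCU neonates and 9.05, 9.84 and 9.18 in WT neonates (0.16, SE 0.21, adjusted p = 0.885).

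One neonate carried most of the high values. DN-MCU neonate 2 was the highest of its group for 8 of the 10 genes, all but Atf3 and Ddit4, and DN-MCU neonate 3 was the lowest for 7 of them. Its signal for the Mcu probe set that is dim in WT hearts was the lowest of the 3 DN-MCU neonates, at 8.44, against 9.28 in DN-MCU neonate 3. Without DN-MCU neonate 2 the log2 difference was 2.5 for Trib3, 4.01 for Chac1, 1.04 for both Ddit3 and Atf5, 0.59 for Nupr1 and 0.40 for Atf4, against 3.06, 4.55, 1.40, 1.37, 1.05 and 0.69 with it. Among DN-MCU adults no array held that place: adult 3 was the highest for 5 genes and the lowest for the other 5.

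The difference between the ages was tested as the adult effect minus the neonatal effect, over all 12 arrays. None of the 10 genes passed by its brightest probe set, while 0.786% of all probe sets did, and 4 of the 10 had an unadjusted p under 0.05 in limma, against 9.22% of all probe sets. The adult difference was the larger one for 8 of the 10 genes, against 47.1% of all genes tested. By the brightest probe sets Trib3 came closest, with an adult effect larger by 3.00 on the log2 scale (SE 0.61, limma adjusted p = 0.0579). Its second probe set was below the filter level in WT hearts at both ages, so its difference of effects was not measured and is not counted here. Atf5 differed by 1.99 (SE 0.44, adjusted p = 0.0886), Atf4 by 1.06 (SE 0.33, adjusted p = 0.266) and Sesn2 by 0.76 (SE 0.24, adjusted p = 0.284). By their second probe sets Atf4 differed by 1.29 (SE 0.26, limma adjusted p = 0.0579) and Sesn2 by 2.08 (SE 0.59, adjusted p = 0.198). For Chac1 the value was -0.38 (SE 0.76, adjusted p = 0.958), with a neonatal baseline near background. Leaving out DN-MCU neonate 2 gave 3 genes that passed, Trib3 (3.56, adjusted p = 0.00605), Atf5 (2.32, 0.0393) and Atf4 (1.35, 0.0469). The differences at both ages are plotted below with their errors.

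**Figure D2:**
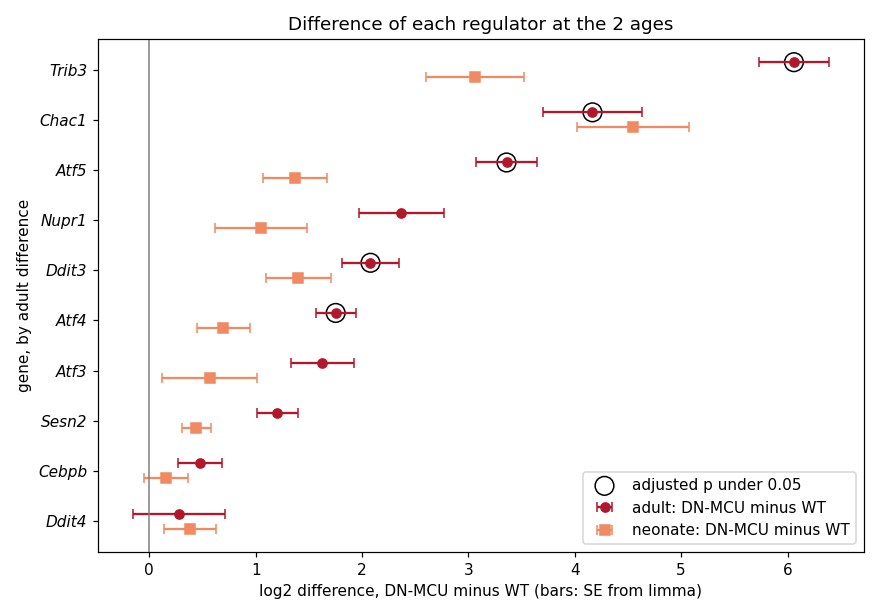
Log2 difference between DN-MCU and WT hearts (horizontal axis) for each regulator, adults as circles and neonates as squares, with bars of 1 SE from limma and rings around differences with an adjusted p under 0.05. Genes run from Trib3 at 6.06 in adults to Ddit4 at 0.28; only adult differences are ringed, and Chac1 and Ddit4 are the genes whose neonatal value is the larger.

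The order of the genes by their response was then compared between ages, array by array. For every DN-MCU array the mean of the WT arrays of its age was subtracted, and the 10 differences were ranked within the array, since signals of different probe sets cannot be compared directly. Trib3 ranked first and Chac1 second on all 3 adult arrays. On all 3 neonatal arrays it was the reverse, Chac1 first and Trib3 second. Chac1 was near background in WT neonates. With the filter level in place of its WT mean, Chac1 was at 4.01, 5.26 and 3.28 on DN-MCU neonates 1 to 3, against 2.73, 4.18 and 2.28 for Trib3 from its WT mean of 4.62, and whether dim signals shrank the Trib3 differences was not tested.

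Below the first pair the order was similar at the 2 ages. In adults Atf5 held rank 3 and Ddit3 rank 5 on every array, with Nupr1 at rank 4 on DN-MCU adults 1 and 2 and at rank 8 on DN-MCU adult 3. In neonates Ddit3 ranked 3 or 4 and Atf5 between 3 and 5, so Ddit3 stood higher in every neonatal array than in any adult array. Atf4 held rank 6 on all adult arrays and ranks 6 to 7 in neonates, and Sesn2 ranks 7 to 8 in adults and 8 to 9 in neonates. Cebpb was at rank 9 or 10 on all 6 arrays. Ddit4 was at 9 or 10 in adults and between 6 and 10 in neonates.

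Atf3 was the least settled gene. It ranked 7 on DN-MCU adults 1 and 2 and 4 on adult 3, and 10, 7 and 3 on DN-MCU neonates 1 to 3. The range of ranks in adults and in neonates overlapped for 7 of the 10 genes, and the exceptions were Trib3, Chac1 and Ddit3. Between the means of the 2 ages the ranks of 9 genes differed by at most 1, and Spearman's rho over the 10 genes was 0.94. Between single adult and neonatal arrays rho ranged from 0.60 to 0.95 over the 9 pairs, within the 3 pairs of adults from 0.83 to 0.99 and within the 3 pairs of neonates from 0.61 to 0.83. These are descriptions: arrays of 1 age share their WT mean, and the genes are not independent. Without DN-MCU neonate 2 the rho of the means was 0.75. Each gene was ranked by its brightest probe set, and other probe sets placed 2 genes elsewhere, in an alternative added after the data were seen. By its second probe set Sesn2 had mean rank 4 in adults and 8 in neonates, and rho was 0.81. By its dimmer probe set Ddit3 had mean rank 9 in adults and 10 in neonates, and rho was 0.95. That probe set was below the filter level on every neonatal array, so its neonatal difference and rank were not measured. This rho is not counted as a reading of the order. The ranks and differences on each array are drawn below.

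**Figure D3:**
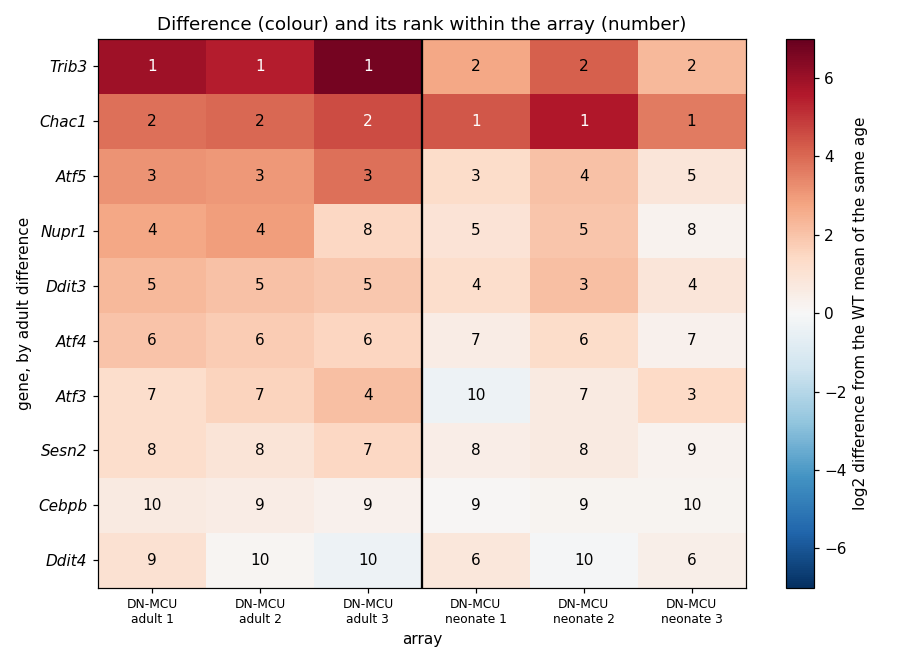
Log2 difference from the WT mean of the same age (colour) and rank of that difference within the array (number) for the 10 regulators (rows) on each DN-MCU array (columns), adults left and neonates right of the line. Trib3 holds rank 1 and Chac1 rank 2 in adults and the reverse in neonates, and Atf3 runs from rank 3 to 10.

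Levels of several regulators differed with age in WT hearts. Higher in WT adults than in WT neonates were 7 of the 10, Chac1, Cebpb, Nupr1, Atf5, Ddit3, Ddit4 and Trib3, where 22.6% of all probe sets passed as higher and 28.2% as lower in a fit of the 6 WT arrays. Chac1 was at 6.92, 7.0 and 5.44 in WT adults and 2.87, 2.55 and 3.56 in WT neonates, so that its mean in WT adults was at least 8.56-fold above the filter level (3.46, SE 0.48, limma adjusted p = 0.00153). Cebpb was higher in WT adults by 1.87 (SE 0.25, adjusted p = 0.00139), Nupr1 by 1.41 (SE 0.20, adjusted p = 0.0018), Atf5 by 1.39 (SE 0.19, adjusted p = 0.00145) and Ddit3 by 1.25 (SE 0.23, adjusted p = 0.005). The differences were smaller for Ddit4 (0.88, SE 0.28, adjusted p = 0.0384) and Trib3 (0.72, SE 0.11, adjusted p = 0.00193). Ddit4 passed in 8 of 15 settings, and not without WT neonate 1, 2 or 3 (adjusted p = 0.0969, 0.0551 and 0.12) or WT adult 3 (0.0733). Trib3 passed in 14 of 15, the exception being the shared spread of all arrays (adjusted p = 0.198), and its second probe set, below the filter level in both groups, gave 0.27 (SE 0.14, adjusted p = 0.161). Atf4 (0.11, SE 0.11, adjusted p = 0.432), Sesn2 (0.17, SE 0.12, adjusted p = 0.299) and Atf3 (-0.45, SE 0.26, adjusted p = 0.19) did not pass. The second probe sets of Atf4 (-0.44, SE 0.19, adjusted p = 0.0961) and Sesn2 (-0.02, SE 0.13, adjusted p = 0.895) had the opposite sign and did not pass either. The WT groups did not overlap for 7 genes in the higher direction, against 29.2% of all probe sets, and for Atf3 in the lower, against 36.3%. The median over all probe sets in this comparison was -0.07, and -0.20 after the median of each array was subtracted. Cell type markers moved between the same groups. Of 8 macrophage markers 7 were higher in adults. The log2 of their summed signal was 12.67 to 12.91 in WT adults and 10.64 to 10.84 in WT neonates. For the 3 of 8 neutrophil markers measured it was 5.22 to 5.62 in WT adults and 8.98 to 10.53 in WT neonates, and all 3 were lower in adults. Of 8 fibroblast markers 5 were lower and 2 higher in WT adults, with sums of 15.59 to 15.83 in WT adults and 16.28 to 16.48 in WT neonates, and 6 of 8 epicardial markers were lower in adults. Of the 4 adipocyte markers measured 3 were higher in WT adults, and 3 of the 4 were below the filter level in WT neonates. Among 10 cardiomyocyte markers 5 were higher and 1 lower in WT adults. The part of these markers in the age differences of the regulators was not tested.

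Set side by side, DN-MCU neonates lay near the level of WT adults for several genes. Atf5 averaged 8.48 ± 0.61 in DN-MCU neonates and 8.50 ± 0.30 in WT adults (SD, n = 3 each). Ddit3 averaged 8.71 ± 0.64 in DN-MCU neonates and 8.55 ± 0.44 in WT adults, and Nupr1 6.95 ± 0.86 in DN-MCU neonates and 7.30 ± 0.14 in WT adults. Trib3 and Chac1 were higher in DN-MCU neonates, at 7.68 ± 0.99 against 5.34 ± 0.10 in WT adults and 7.54 ± 1.00 against 6.45 ± 0.88. Cebpb was lower there, at 9.52 ± 0.05 in DN-MCU neonates against 11.23 ± 0.29 in WT adults. These groups differ in both age and genotype and were not tested against each other.

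The wider pathway was described from lists of genes, each read by its brightest probe set, with the 10 regulators left out. Among the kinases and relay that start the response, none of 6 genes (Eif2ak1, Eif2ak2, Eif2ak3, Eif2ak4, Oma1 and Dele1) passed at either age in limma, and 0 of the 6 in adults and 1 in neonates had an unadjusted p under 0.05, where 10.3% and 7.27% of all probe sets did. The 1 was Eif2ak4, the amino acid sensor GCN2 (0.43, SE 0.11, limma adjusted p = 0.532). Their median difference was -0.19 in adults and 0.07 in neonates. None of 11 genes listed for eIF2, its exchange factor and its phosphatase passed either, with medians of 0.31 and 0.16. The 11 include Eif2a, which encodes the separate initiation factor eIF2A, and do not include Eif2s1, the gene of eIF2alpha. The closest was Ppp1r15a (GADD34), the stress-induced phosphatase subunit that CHOP and ATF4 switch on, at 1.00 in adults (SE 0.15, adjusted p = 0.0678) and -0.01 in neonates (SE 0.10, adjusted p = 0.994), and the difference between the ages passed (adjusted p = 0.0288).

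Of the lists set beside the 10 regulators, targets of ATF4 had the most calls. Of 35 enzymes, transporters and tRNA synthetases 9 rose in adults and none fell, with a median of 1.53. Over all probe sets 0.389% passed as higher in adults. In neonates 0 of the 35 passed, with a median of 0.48. Among them Mthfd2, a mitochondrial folate enzyme, rose by 7.20 (SE 0.30, limma adjusted p = 0.00141) in adults, and Psat1 and Slc7a5 were among the others that rose. The 9 include Fgf21, a hormone gene, and Slc7a3, which were below the filter level in WT hearts at both ages. Both were tested only because of the DN-MCU arrays. Their DN-MCU adult means were at least 26.2-fold (Fgf21) and 8.88-fold (Slc7a3) above that level, which gives bounds and no separate support. The adult effect was the larger one for 30 of the 35, against 47.1% of all genes tested. That difference passed for 8, among them Psat1, Slc7a5 and Mthfd2, against 0.587% of all probe sets that passed as higher. Psat1, Slc7a5 and Mthfd2 had lower mean signals in WT adults than in WT neonates. These were 5.04 against 9.24 for Psat1, 3.79 against 7.82 for Slc7a5 and 4.48 against 7.49 for Mthfd2. Psat1 averaged 8.80 in DN-MCU adults and 9.75 in DN-MCU neonates. In WT hearts 11 of the 35 passed as lower and 7 as higher in adults, where 28.2% of all probe sets passed as lower and 22.6% as higher. The part of these levels in the difference was not tested. This list was set down with its rise in these data known.

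Other branches of stress signalling showed few calls within an age. Of 21 genes of endoplasmic reticulum chaperones and degradation none passed in adults (median 0.20) or neonates (median 0.01), and the closest in adults was Ern1, the sensor IRE1alpha (1.34, SE 0.20, limma adjusted p = 0.0735). Of 12 mitochondrial chaperones and proteases Lonp1, the matrix protease, rose in adults (1.68, SE 0.21, adjusted p = 0.0433), with a list median of 0.19, and none passed in neonates (median 0.11). None of 25 bZIP partners passed at either age, with medians of 0.40 in adults and 0.10 in neonates. The same held for 24 other genes of the mTORC1 axis (0.21 and 0.03), 8 of glutathione turnover (0.06 and 0.15), 7 CHOP targets (0.37 and 0.01), 14 p53 targets (0.34 and -0.03), 13 glucocorticoid targets (0.07 and 0.01) and 15 hypoxia targets (-0.25 and 0.04). In these lists the p53 target Cdkn1a, the cell cycle inhibitor p21, had the largest adult difference, at 2.74 (SE 0.51, adjusted p = 0.114). Besides Ppp1r15a, which is also a CHOP target, the adult minus neonatal effect passed for 4 of these genes, each time positive: Lonp1 (1.39, SE 0.23, adjusted p = 0.0202), Ern1 (1.43, SE 0.26, adjusted p = 0.0353), Adm, the hypoxia-induced adrenomedullin gene (1.56, SE 0.29, adjusted p = 0.0419), and Deptor, an inhibitor of mTOR (1.63, SE 0.31, adjusted p = 0.046). Over all probe sets 0.587% passed as positive in this test and 0.199% as negative. For Adm the adult difference was 0.49 (SE 0.24, limma adjusted p = 0.571) and the neonatal one was -1.06 (SE 0.16, adjusted p = 0.265). Trib2, the one measured paralog of Trib3, was at -0.65 in adults (SE 0.18, adjusted p = 0.277). The differences of all listed genes are plotted below.

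**Figure D4:**
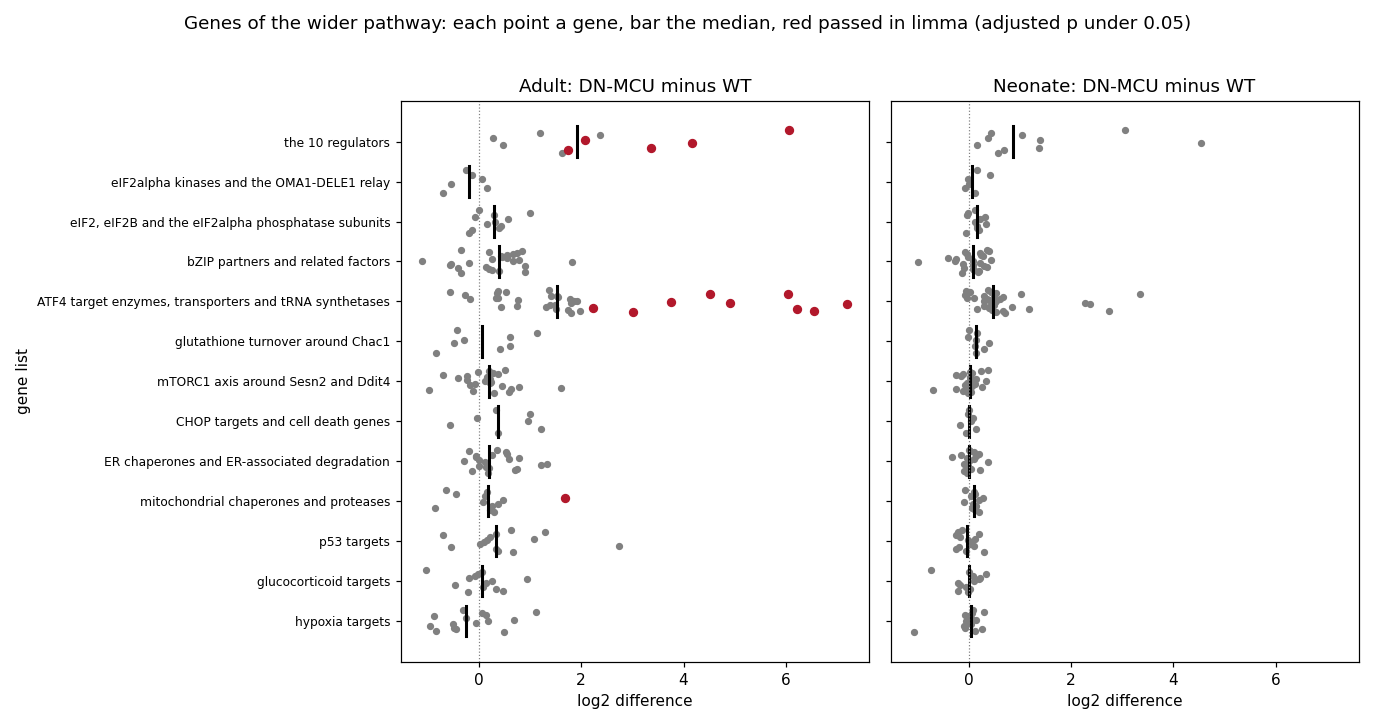
Log2 difference between DN-MCU and WT hearts (horizontal axis) for the genes of 13 lists (rows), adults left and neonates right, with 1 point per gene, a black bar at the list median and red points for genes with a limma adjusted p under 0.05. Red points occur in adults alone, in the rows of the 10 regulators (5 genes), the ATF4 targets (9 genes) and the mitochondrial chaperones and proteases (Lonp1).

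The genes most like the 10 regulators over the 12 arrays were found by Pearson's r with the mean of their standardized signals. They were Slc3a2 (r = 0.97), the heavy chain of amino acid exchangers, Zw10 (0.96), Lonp1 (0.96), Slc19a2 (0.95), a thiamine transporter, Rhbdd1 (0.94) and Uqcc3 (0.94), an assembly factor of respiratory complex III. The arrays fall into 4 groups of 3, so that r describes mostly the group means. Among the regulators, r with that mean was between 0.94 and 0.99 for Atf5, Ddit3, Trib3, Nupr1, Sesn2, Chac1 and Atf4, each of which entered the mean itself, and it was 0.76 for Cebpb, 0.64 for Ddit4 and 0.63 for Atf3. For Mcu, read by its brighter probe set, r was -0.31.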

How the data were processed

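Expression was measured on 12 Affymetrix arrays from 500 ng of total RNA each, per the labels' protocols, in 4 groups of 3 named from the sample titles. The values analysed are the log2 signals the authors deposited in their series table, from 0.79 to 15.93. The submitters' processing notes name Partek, and the background correction and normalization are not given in the sources used here; signal near background and compression at high signal can shrink a fold change. Of 45101 probe sets 64 controls were left out, and a probe set was tested where at least 3 arrays exceeded log2 3.35, the median over the whole table, which left 24176. Of the 45037 others, 34945 had 1 gene symbol, 932 several and 9160 none in GEO's platform annotation.

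Groups were compared on the deposited log2 scale in R 4.3.3 with limma 3.58.1 (lmFit and eBayes), each age with its own 6 arrays, the age effect in WT with the 6 WT arrays, and the difference of effects with all 12. P-values were two-sided and adjusted by Benjamini-Hochberg over all tested probe sets; the fits were tested on simulated data. A gene was read by its brightest probe set, judged by the mean of the 12 arrays, and another probe set is given where it differed in sign or call. From each list at most 3 genes with the smallest p were named, and as similar genes the 6 with the highest Pearson's r. Mcu was named besides these. The members and lists were chosen with earlier results of these data known.

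Replicate numbers come from the titles. Deviations from the group mean of same-numbered DN-MCU and WT arrays correlated at 0.13, 0.22 and 0.28 in neonates and at -0.38, 0.41 and -0.43 in adults. They were positive for every neonatal number and mixed in adults. Arrays of unlike number were not compared, so pairing was not established at either age. The main fits used no replicate block. The labels call replicates biological but do not say from which litters they came. Other settings were a filter at log2 7.25 or none, scaling by quantiles or by each array's median, a shared spread, array weights, a trended robust prior, the replicate block, the mean of a gene's probe sets and leaving out each array. The number of arrays limits the precision.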

Additional observations from a re-analysis of the deposited data

Results flagged for a closer look

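The second probe set of Trib3 was singled out because the limma test of adult effect minus neonatal effect gave 3.54 (SE 0.62, adjusted p = 0.0308, 12 arrays). It was at 9.18, 8.94 and 10.07 in DN-MCU adults and 2.23, 2.61 and 2.63 in WT adults, and at 5.35, 6.70 and 4.74 in DN-MCU neonates and 2.23, 2.26 and 2.18 in WT neonates. All 6 WT signals are below the filter level of 3.35, and the probe set was tested only because of the DN-MCU arrays, so 3.54 is not a measured difference of effects. The brighter probe set of the gene gave 3.00 (SE 0.61, adjusted p = 0.0579) and did not pass.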

How the results depend on the processing

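Among the 10 regulators, Trib3 in adults was the one gene that passed in all 17 settings, with log2 differences of 5.73 to 6.48 and a highest limma adjusted p of 0.049. In adults 5 passed, against 3 without a filter, 8 with a shared spread of all 12 arrays, 8 with array weights, 3 without both DN-MCU adult 3 and WT adult 1 (an alternative added after the data were seen), and 1 to 4 with single arrays left out. In neonates none passed, against 1 (Chac1) with a shared spread and 0 to 0 with single arrays left out. For the difference between the ages none passed, against 2 with array weights, 1 with the mean of each gene's probe sets, 1 without both adult arrays, and 0 to 3 with single arrays left out; in WT hearts 7 passed with age, and 6 to 7 with single arrays left out, Ddit4 being the gene lost. Spearman's rho of the order, 0.94, ranged from 0.75 to 0.96 with single arrays left out and was 0.81 with Sesn2 read by its second probe set, added after the data were seen.

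Over all probe sets, 112 passed in adults, against 74 without a filter, 1152 with a shared spread, 964 with array weights, 57 without both adult arrays and 17 to 175 with single arrays left out. In neonates 1 passed, against 2 with array medians subtracted, 0 without a filter, 2 with the stricter filter, 4 with a shared spread, 2 with array weights, 2 with a trended robust prior and 0 to 3 with single arrays left out. For the difference 190 passed, against 1216 with array weights, 1112 without both adult arrays and 70 to 636 with single arrays left out. With age 12285 passed, against 7917 with the stricter filter and 9908 to 13966 with single arrays left out.

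With the replicate block, 16 probe sets and 1 of the 10 regulators passed in adults, 0 probe sets in neonates and 39 for the difference, or 71 with the block in neonates alone, added after the data were seen. Pairing by replicate number was not established, so a call lost with the block in adults is not read as a weaker effect. In neonates the block changed no call of a regulator.

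The sign turned in few places, all in differences that did not pass. Ddit4 in adults ranged from -0.11 (without DN-MCU adult 1) to 0.60 with single arrays left out. The adult minus neonatal effect of Ddit4, -0.10, was 0.21 with array weights, 0.49 without both adult arrays, 0.10 without DN-MCU neonate 1, 0.03 without WT neonate 3, 0.22 without DN-MCU adult 3 and 0.17 without WT adult 1, with a lowest value of -0.49. That of Chac1, -0.38, ranged from -0.89 to 0.16, the last without DN-MCU neonate 2. Atf4 with age in WT was -0.022 with array medians subtracted and -0.16 with the mean of its probe sets. The cause was not tested. Sesn2 has no value under the stricter filter, which removed it. Signal over background limits Chac1 in WT neonates, the dimmer Ddit3 probe set in all neonates and the second Trib3 probe set in all WT hearts.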
